A study of Homo sapiens with 8 samples.

Results

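Integrins are the receptors by which cells hold on to extracellular matrix, and each one is a pair of an alpha and a beta subunit. The messenger RNA of 10 integrin subunits was compared between osteosarcoma cells given a miR-101-3p mimic and cells given a negative control mimic: the alpha subunits ITGA2, ITGA3, ITGA4, ITGA5, ITGA6, ITGA9 and ITGAV and the beta subunits ITGB1, ITGB3 and ITGB5. They were looked up by gene symbol and are 10 of the 15982 genes in the count table. All 10 were among the 15905 genes tested. The list was chosen with the response to miR-101 in view (ITGA9 higher, ITGA5 lower), so the differences of its members between the groups are given as a description, without p-values.

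The cells were 143BTK-, a human osteosarcoma line without thymidine kinase, grown without glucose, on 10 mM galactose, with 5% dialysed serum. Both groups received 80 pmol of a synthetic microRNA mimic by lipid transfection, again at 48 h, and were harvested at 120 h. One group received hsa-miR-101-3p (miR-101, n = 4 libraries), the other a commercial negative control mimic (control, n = 4 libraries). The labels name 4 separate transfection experiments in this single line, so the results describe one cell line with an introduced mimic, not a cell's own miR-101.

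The alpha subunit largely sets what an integrin binds. ITGA2 encodes a collagen receptor subunit, and ITGA3 and ITGA6 encode subunits of laminin receptors. ITGA5 and ITGAV encode subunits of receptors for proteins with an arginine-glycine-aspartate motif, such as fibronectin and vitronectin. ITGA4 and ITGA9 form a subfamily of their own, with ligands that include fibronectin, VCAM1, osteopontin and tenascin-C. ITGB1 is the shared partner of most of these alpha subunits, whereas ITGB3 and ITGB5 pair with ITGAV. A microRNA lowers its targets mainly by base pairing of its seed, bases 2 to 8, with sites in the 3′ untranslated region (3′ UTR) of a messenger RNA.

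The mature miR-101-3p sequence is shown because its seed, in capitals, defines the sites searched for in the integrin genes. It is taken from RefSeq (GRCh38.p14, chr9:4850345-4850365, plus strand).
hsa-miR-101-3p: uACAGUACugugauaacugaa
The sites searched for, on the transcript strand of the longest annotated 3′ UTR (GENCODE 29, GRCh38), were GTACTGTA (8mer), GTACTGT (7mer-m8), TACTGTA (7mer-A1) and TACTGT (6mer). A shorter match inside a longer one was not counted again.

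Of the 10 subunits, 3 had a match of at least 7 bases: ITGA2, ITGA3 and ITGA6. Of these 6 matches, 5 are printed as windows of 30 bases, with the match in capitals, since they are among the places where the mimic could pair. Those of the known miR-101 target EZH2, the catalytic subunit of a histone methyltransferase, stand beside them for comparison. Coordinates are those of GRCh38, and sequences read 5′ to 3′ along the messenger RNA.
ITGA2 7mer-m8, chr5:53092434-53092463, plus strand: tggcagtccagggctatctGTACTGTttac
ITGA2 8mer, chr5:53093112-53093141, plus strand: caaacaaaaaaaaagttaGTACTGTAtatg
ITGA3 8mer, chr17:50090374-50090403, plus strand: gccccagccccttccatgGTACTGTAgcag
ITGA6 7mer-A1, chr2:172505214-172505243, plus strand: ataatgtttctggatttcaTACTGTAacat
ITGA6 7mer-A1, chr2:172505291-172505320, plus strand: gtttactcactgctgcaaaTACTGTAtatt
EZH2 7mer-m8, chr7:148807577-148807606, minus strand: ttagcttcaggaacctcgaGTACTGTgggc
EZH2 8mer, chr7:148807521-148807550, minus strand: aaattctgaatttgcaaaGTACTGTAagaa

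ITGA2 held 3 of these matches and a further 6mer in a 3′ UTR of 4180 bases. The 7mer-m8 began at base 1854, the 8mer at base 2531 and the 6mer at base 2804. The single ITGA3 match began at base 1314 of 1402, near the end of the annotated UTR. The pair in ITGA6 began at bases 1165 and 1242 of 2162, close to each other. ITGAV (3609 bases) had 2 6mers and ITGB1 (1323 bases) had 1. No match of any kind was found in ITGA4 (660 bases), ITGA5 (1032 bases), ITGA9 (4525 bases), ITGB3 (1612 bases) or ITGB5 (1675 bases). The ITGA9 UTR is therefore long but without these letters: it is longer than 88.7% of the 12188 tested genes that have an annotated 3′ UTR.

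Across those 12188 genes, 23.8% had a match of at least 7 bases, 7.19% had at least 2 and 2.21% had at least 3. Genes whose best match was an 8mer (560 genes) had a median log2 fold change of -0.26, against -0.02 for the 7051 genes without a match. For genes whose best match was a 7mer-A1, as in ITGA6, the median was 0.004. EZH2 itself fell from 45.7 ± 5.12 to 28.1 ± 2.10 CPM (SD, n = 4 per group; log2 fold change -0.70 ± 0.11 SE; edgeR adjusted p = 0.00561), with no overlap between the groups. Summing replicates 1 and 2 ended that call (edgeR adjusted p = 0.0809). CPM are counts scaled to a common library size, with totals adjusted by the trimmed mean of M-values (TMM). A match is a stretch of letters and not a measured binding site, and pairing of the mimic with these genes was not tested.

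**Figure D1:**
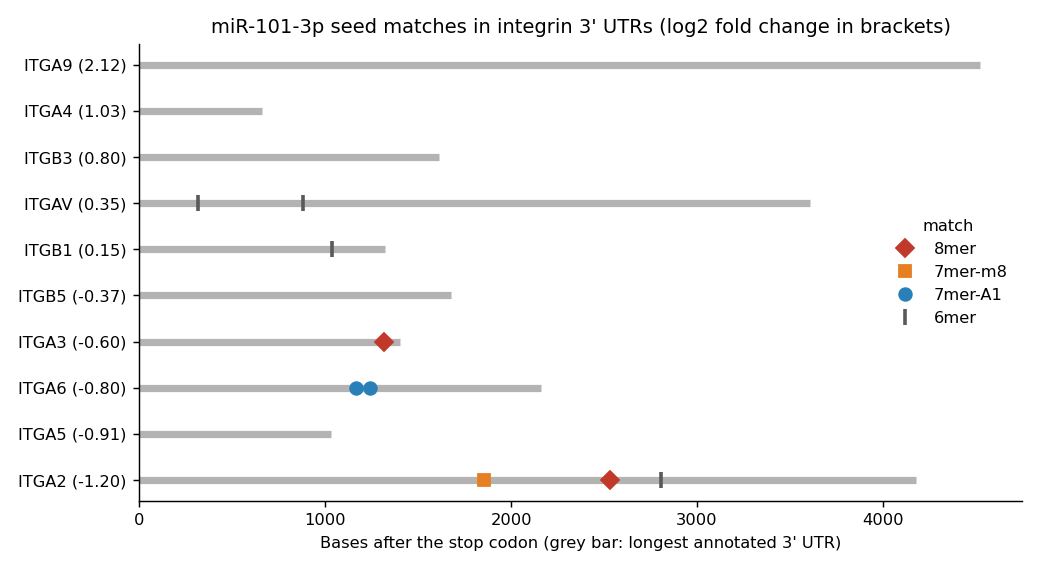
Matches to the miR-101-3p seed in the longest annotated 3′ UTR of the 10 integrin subunits, drawn to scale from the stop codon (x axis, bases), with each gene's log2 fold change of miR-101 over control in brackets. Each grey bar is a UTR and each mark a match by type. ITGA2 carries 3 marks, with a further match not drawn, and ITGA9, with the longest bar at 4525 bases, carries none.

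Library totals ran from 17603054 to 20160267 counts. Replicates 1 and 2 stood unusually close to each other in both groups: the chi-square per degree of freedom between their counts was 3.79 for miR-101 and 4.65 for control, against 14.4 to 69.1 for the other pairs within a group. They differed by more than sampling noise and were kept as separate samples, and counts of calls are also given with the pair summed. Control replicate 4 had low counts for several integrin subunits. Of 9 osteoblast and mesenchymal marker genes, 6 were analysed, with VIM at 580.9 ± 151.9 CPM in miR-101 and 668.5 ± 162.3 in control. Their summed level ran from 1219 to 2291 CPM in miR-101 and from 1332 to 1879 in control. The fold changes of 3 were above 0 and those of the other 3 below. RUNX2, a bone transcription factor, rose from 13.4 ± 4.00 to 25.4 ± 4.80 CPM (edgeR adjusted p = 0.0269), and NT5E, a surface marker of mesenchymal cells, fell from 412.4 ± 59.7 to 289.9 ± 18.6 CPM (edgeR adjusted p = 0.0278). Leaving out 1 library ended the RUNX2 call in 5 of 8 fits, those lacking miR-101 replicates 1, 3 and 4 and control replicates 1 and 2 in turn. The NT5E call ended in 6, those without any 1 miR-101 replicate or control replicate 1 or 2. COL1A1 at 13.5 ± 3.97 against 6.29 ± 2.83 CPM and SPARC at 942.1 ± 576.6 against 564.0 ± 294.8 were not called, and ALPL, COL1A2 and THY1 were not analysed here. Of 7 epithelial markers, 3 were analysed (KRT8, KRT18 and EPCAM), and their summed level was 359.6 to 625.1 CPM in miR-101 and 288.5 to 375.1 in control. KRT8 rose from 61.4 ± 12.4 to 117.3 ± 23.2 CPM (edgeR adjusted p = 0.0114, and 0.0657 with replicates 1 and 2 summed), and the part of this shift in the integrin differences was not tested. Only 2 of 6 leukocyte markers (LCP1 and CD14) and 2 of 5 endothelial ones (KDR and PECAM1) were analysed, at summed levels of up to 55.3 and 10.4 CPM.

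The integrin response was split in direction. ITGA4 and ITGA9 rose with miR-101, and ITGA2, ITGA5 and ITGA6 fell. These 5 of 10 passed edgeR's quasi-likelihood test (a call is an adjusted p under 0.05 over all genes), beside 6.62% of all 15905 genes (3.30% higher and 3.32% lower). The same 5 had groups that did not overlap in CPM, beside 15.1% of all genes. Since the list was selected on this contrast, nothing is read from its share against that background. The median log2 fold change of the 10 was -0.11, beside -0.005 over all genes. All 10 subunits had the same sign of difference in replicates 1 and 2 as in replicates 3 and 4. The share of all genes with such a match of signs was not computed, so nothing is read from this count either.

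The number of calls depended on the close pair of replicates. With replicates 1 and 2 alone, all 10 subunits were called, 5 higher and 5 lower, but so were 32.4% of all genes. With replicates 3 and 4 alone, edgeR called 0 of the 10 and 0.0379% of all genes, and 6 of the 10 had an unadjusted p under 0.05. Nothing is read from those 6, since the share of all genes at that unadjusted p was not computed. With replicates 1 and 2 summed into 1 sample per group, ITGA4 alone of the 10 was called. DESeq2 called 6 (ITGA3 in addition) and limma-voom 5. A fit that added the replicate number as a blocking term (the replicate block) called 6 (ITGB3 in addition). Over all genes DESeq2 called 1714, limma-voom 1059 and the replicate block 1676, against 1053 in the main edgeR fit.

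**Figure D2:**
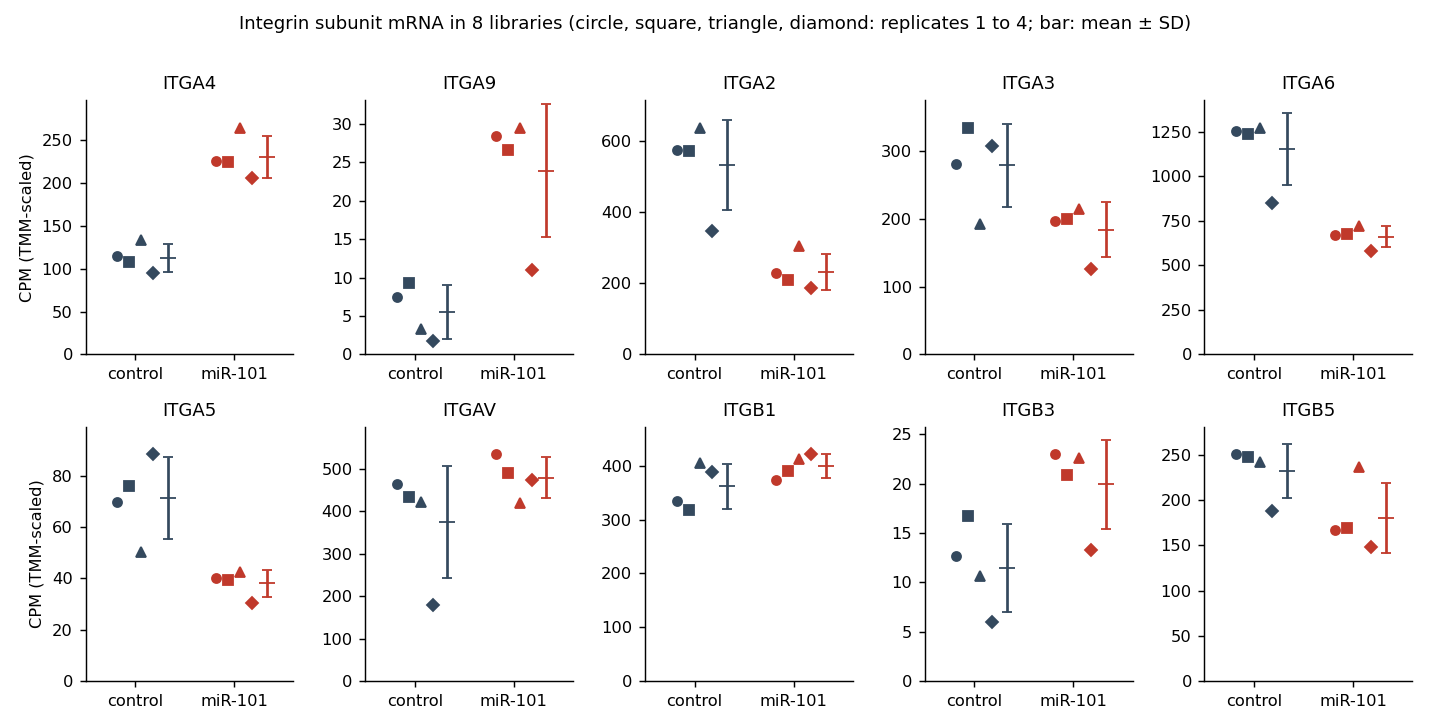
CPM of each integrin subunit in each of the 8 libraries, 1 panel per gene with its own y axis starting at 0. Points are libraries, with 1 shape per replicate number, and bars are the mean and SD of 4 libraries. The groups are apart for ITGA2, ITGA4, ITGA5, ITGA6 and ITGA9 and overlap in the other 5 panels.

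**Figure D3:**
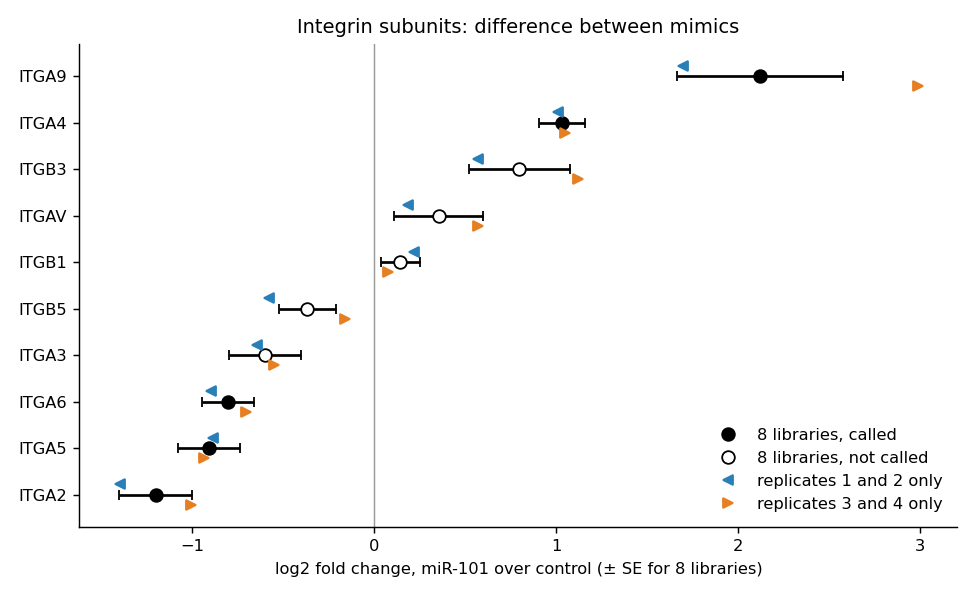
Log2 fold change of miR-101 over control for each subunit (x axis) from all 8 libraries (circles with standard error, filled where called) and from replicates 1 and 2 and replicates 3 and 4 separately (triangles). ITGA9 is farthest to the right at 2.12 and ITGA2 farthest to the left at -1.20.

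ITGA4 and ITGA9, the related alpha subunits, were both higher with miR-101. ITGA9 (chr3:37452115-37823514, plus strand) was at 28.4, 26.5, 29.5 and 11.1 CPM in miR-101 replicates 1 to 4 and at 7.47, 9.35, 3.35 and 1.82 CPM in control. The lowest miR-101 library lay above the highest control library, though the fourth library was the lowest of its group on both sides. Its mean rose from 5.50 ± 3.51 to 23.9 ± 8.65 CPM (SD, n = 4), which is 4.34-fold and a log2 fold change of 2.12 ± 0.46 (SE). Replicates 1 and 2 gave 1.70, replicates 3 and 4 gave 2.99, and all but control replicate 4 gave 1.82. The call was lost when miR-101 replicate 1, 2 or 3 was left out, at log2 fold changes of 2.02, 2.06 and 1.99. ITGA9 rested on the fewest counts of the 10, between 38 and 179 per control library and between 204 and 603 per miR-101 library. Part of its exons (6.46%) overlap the antisense gene ITGA9-AS1, which was at 0.681 ± 0.279 CPM in miR-101 and 1.03 ± 0.264 in control and was not called. Whether the counting used strand is not given in the sources used here.

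ITGA4 (chr2:181457202-181536187, plus strand) encodes the subunit best known from white blood cell adhesion. It was at 225.1, 223.6, 264.2 and 205.8 CPM in miR-101 and at 114.8, 107.1, 132.8 and 94.9 CPM in control. The groups were far apart, and every pair of same-numbered libraries differed in the same direction. Its mean rose 2.04-fold, from 112.4 ± 15.9 to 229.7 ± 24.6 CPM, a log2 fold change of 1.03 ± 0.13. Replicates 1 and 2 gave 1.01 and replicates 3 and 4 gave 1.05, and the call held with each library left out. The leukocyte markers PTPRC, CD3E and TYROBP were not analysed here. LCP1 ran from 5.43 to 29.5 CPM in miR-101 and from 11.2 to 54.2 in control, the highest in control replicate 4, and CD14 was at 1.71 ± 0.24 and 2.13 ± 1.09 CPM. The part of leukocyte content in the ITGA4 difference was not tested.

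Of the collagen and laminin receptor subunits among the 10, ITGA2 and ITGA6 fell and ITGA3 was not called. ITGA2 (chr5:52989326-53094779, plus strand), with 3 seed matches of at least 7 bases, was at 228.2, 210.4, 304.2 and 186.7 CPM in miR-101 and at 576.8, 571.9, 639.1 and 348.1 CPM in control. Every miR-101 library lay below every control library, and control replicate 4 was the lowest of its group. The mean fell from 534.0 ± 127.6 to 232.4 ± 50.8 CPM, which is 2.30-fold lower and a log2 fold change of -1.20 ± 0.20. Replicates 1 and 2 alone gave -1.39, and replicates 3 and 4 gave -1.01.

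ITGA6 (chr2:172427354-172506282, plus strand), with a pair of 7mer-A1 matches, was the most abundant of the 10. Its values were 669.9, 675.1, 722.0 and 581.3 CPM in miR-101 and 1257, 1239, 1275 and 850.9 CPM in control. Control replicates 1 to 3 lay close together, and control replicate 4 was lower but still above every miR-101 library. Its mean fell from 1155 ± 203.6 to 662.1 ± 58.8 CPM, 1.75-fold lower, with a log2 fold change of -0.80 ± 0.14. The calls of ITGA2 and ITGA6 held with each library left out, and both ended when replicates 1 and 2 were summed. In a bulk RNA sample, fewer cells that express a gene and less of its RNA per cell cannot be told apart, here and for the other subunits.

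ITGA3 (chr17:50055968-50090481, plus strand), the other laminin receptor subunit, carries an 8mer and was at 196.5, 199.0, 214.4 and 125.2 CPM in miR-101. Its control values were 280.6, 333.9, 192.0 and 306.0 CPM. The groups overlapped through control replicate 3, which lay below 3 of the 4 miR-101 libraries. The means were 183.8 ± 39.8 and 278.1 ± 61.4 CPM, a log2 fold change of -0.60 ± 0.20 that was not called. Without control replicate 3 it was called at -0.74, and DESeq2 called it at -0.60 with all libraries. Of the 3 subunits with a match of at least 7 bases, ITGA2 and ITGA6 fell, and ITGA3 had a negative fold change that was not called by edgeR with all libraries. The members were chosen on this contrast, so nothing is read from these directions about pairing, which was not tested.

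The receptors for fibronectin and vitronectin did not move together. ITGA5 (chr12:54395261-54419460, minus strand), the classical fibronectin receptor subunit, was at 40.0, 39.4, 42.3 and 30.3 CPM in miR-101 and at 69.8, 76.1, 50.3 and 88.5 CPM in control. The groups did not overlap, and the nearest values were 42.3 and 50.3 CPM, both from replicate 3. Its mean fell from 71.2 ± 15.9 to 38.0 ± 5.30 CPM, 1.87-fold lower, with a log2 fold change of -0.91 ± 0.17. Without any seed match in its UTR, ITGA5 had a difference between those of ITGA2 and ITGA6 in size. The call held with each library left out and ended when replicates 1 and 2 were summed. The separate pairs of replicates gave -0.88 (1 and 2) and -0.93 (3 and 4).

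ITGAV (chr2:186590065-186680901, plus strand) was at 535.3, 490.7, 418.5 and 473.8 CPM in miR-101 and at 464.3, 434.4, 422.4 and 179.6 CPM in control. The groups overlapped, and control replicate 4 lay far below the other control libraries. The means were 479.6 ± 48.3 and 375.2 ± 131.6 CPM and the log2 fold change was 0.35 ± 0.24, which was not called. Without control replicate 4 it was 0.12.

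The groups overlapped for each of the 3 beta subunits, which gave no call in edgeR with all libraries and group as the only term. ITGB1 (chr10:32900319-33005792, minus strand), the common partner, was at 373.0, 390.9, 413.1 and 421.9 CPM in miR-101 and at 335.1, 318.3, 404.7 and 387.7 CPM in control. It was higher with miR-101 in 4 of 4 same-numbered pairs but by little, and the groups overlapped. The means were 399.7 ± 22.1 and 361.4 ± 41.3 CPM, a log2 fold change of 0.15 ± 0.11. ITGB1 has a pseudogene copy, ITGB1P1, to which 51.2 ± 4.23 CPM were assigned in miR-101 and 47.6 ± 5.98 in control. How reads shared by both were counted is not given in the sources used here, so the ITGB1 level is uncertain to that extent.

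ITGB3 (chr17:47253846-47311816, plus strand), the vitronectin receptor partner of ITGAV, was at 23.0, 20.9, 22.6 and 13.3 CPM in miR-101 and at 12.6, 16.7, 10.6 and 5.97 CPM in control. Only miR-101 replicate 4 lay within the control range, and every same-numbered pair was higher with miR-101. The means were 20.0 ± 4.52 and 11.5 ± 4.47 CPM, a log2 fold change of 0.80 ± 0.28. The replicate block gave 0.85 and a call, and 0.58 was left without control replicate 4. In the annotation, 51.57% of ITGB3's exon bases are shared with AC068234.1, a protein-coding model on the same strand, so its counts are uncertain.

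ITGB5 (chr3:124761948-124901418, minus strand), the other ITGAV partner here, was at 167.1, 168.9, 237.3 and 148.0 CPM in miR-101. In control it was at 251.4, 247.8, 242.8 and 188.1 CPM. It was lower with miR-101 in 4 of 4 pairs, by little in replicate 3, and the groups overlapped. The means were 180.3 ± 39.2 and 232.5 ± 29.8 CPM, a log2 fold change of -0.37 ± 0.16. ITGB3 and ITGB5 thus had differences of opposite sign, neither of them called.

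Levels of different genes were compared only per length, as CPM divided by the kilobases of annotated exon (CPM per kilobase). In control, ITGA6 was highest at 176.9 ± 31.2 (130.2 to 195.2 over 4 libraries), and no other subunit reached its range. ITGA2 at 67.5 ± 16.1, ITGB1 at 60.1 ± 6.87, ITGAV at 45.7 ± 16.0, ITGB5 at 36.1 ± 4.62 and ITGA3 at 28.4 ± 6.26 formed a run in which each neighbour in the order overlapped the next. Below them stood ITGA4 at 14.2 ± 2.01, ITGA5 at 9.39 ± 2.10, ITGB3 at 2.61 ± 1.02 and ITGA9 at 0.664 ± 0.424. Each of these 4 was separated from the one above it. Of the 9 neighbouring pairs, 5 did not overlap, and 8 did not when control replicate 4 was left out. With the longest transcript in place of all exons, ITGB1 at 95.5 ± 10.9 moved above ITGA2 at 67.9 ± 16.2, and the rest of the order was the same.

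With miR-101, ITGA6 was still the highest at 101.3 ± 8.99 CPM per kilobase, and ITGA9 still the lowest at 2.89 ± 1.04. ITGB1 at 66.5 ± 3.67 and ITGAV at 58.4 ± 5.88 came next. ITGA4 reached 29.1 ± 3.12, level with ITGA2 at 29.4 ± 6.43, from which it had been well apart in control. That match depends on the length used. The longest transcript of ITGA4 has 4189 bases, against 7901 for all its exons, while those of ITGA2 are 7869 and 7910 bases. By longest transcript ITGA4 would therefore lie above ITGA2 with miR-101. ITGA9 therefore had the largest fold change of the 10 and the lowest level per length in both groups.

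**Figure D4:**
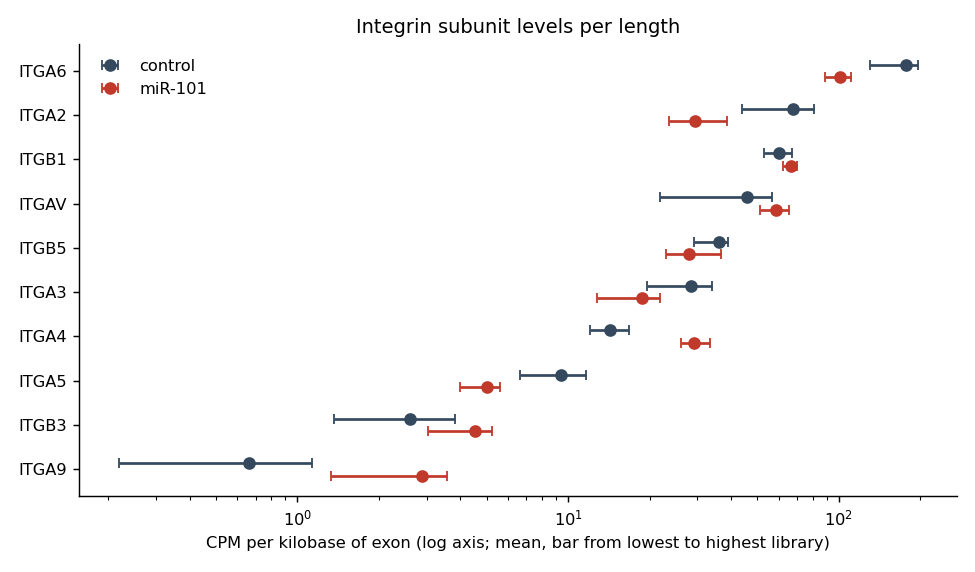
Level of each integrin subunit in CPM per kilobase of exon (log-scaled axis) in control and miR-101 libraries. Points are means of 4 libraries and bars run from the lowest to the highest library. ITGA6 is highest in both groups, and by this measure of length ITGA4 draws level with ITGA2 in miR-101.

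The alpha subunits as a sum were lower with miR-101. The 7 levels per length added up to 253.8, 246.7, 264.4 and 214.4 in miR-101 and to 375.2, 373.6, 370.9 and 251.2 in control, so the ranges overlapped only through control replicate 4. The means were 244.9 ± 21.5 and 342.7 ± 61.0. For the 3 beta subunits the sums were 99.0 ± 7.90 and 98.8 ± 5.85. The ratio of alpha to beta sums was 2.48 ± 0.215 with miR-101 and 3.47 ± 0.586 in control. These ranges also overlapped through control replicate 4, at 2.64 against 2.72 in miR-101 replicate 1.

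Within the alpha sum the make-up shifted. ITGA6 held 51.6 ± 0.80% of it in control and 41.4 ± 0.69% with miR-101, and its shares varied little between libraries. The ITGA2 share was 19.5 ± 1.75% and 11.9 ± 1.76%. ITGA4 went the other way, with 4.20 ± 0.54% in control and 11.9 ± 0.65% with miR-101. ITGAV held 13.0 ± 2.88% and 24.0 ± 3.35%, ranges of 8.70 to 15.1% and 19.3 to 26.9%, although its own level was not called. Shares of a sum move together, so the ITGAV share is no measure of the ITGAV level. ITGA9 remained a small part, at 0.185 ± 0.104% and 1.16 ± 0.36%, and ITGA3 at 8.61 ± 2.99% and 7.59 ± 1.10% and ITGA5 at 2.89 ± 1.23% and 2.04 ± 0.12% overlapped between the groups.

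A further 12 integrin subunits were in the count table. ITGB2, the beta subunit of leukocyte integrins, rose, and the other 11 were not called. Over all genes, 6.62% were called. ITGB2 was at 6.92, 6.75, 6.41 and 5.90 CPM in miR-101 and at 2.80, 3.29, 2.11 and 2.29 CPM in control. The groups lay well apart at this low level, and its log2 fold change was 1.30 ± 0.18 (edgeR adjusted p = 0.00237). It overlaps the antisense gene ITGB2-AS1 in 4.46% of its exon bases. ITGB8, a partner of ITGAV, was at 61.7 ± 6.67 CPM against 35.9 ± 13.1, a log2 fold change of 0.78 ± 0.25 (edgeR adjusted p = 0.0882). Its groups did not overlap. The replicate block called it at 0.86 and DESeq2 at 0.78. EdgeR called it at 0.95 without control replicate 3 and at 0.56 without control replicate 4. Its UTR holds a 7mer-A1, a 7mer-m8 and a 6mer match, and that of ITGA1 holds a 7mer-A1 and further 6mers. Pairing of the mimic with either was not tested.

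The other collagen receptor subunits gave no call in edgeR with all libraries and group as the only term. ITGA1 was at 226.6 ± 74.0 CPM in miR-101 and 186.2 ± 95.4 in control (log2 fold change 0.28 ± 0.41, edgeR adjusted p = 0.731), with 51.1 CPM in control replicate 4. ITGA10 had a log2 fold change of -0.89 (edgeR adjusted p = 0.118) and ITGA11 one of -0.63 (edgeR adjusted p = 0.201). Both were called with the replicate block, and ITGA10 by DESeq2 also. Without control replicate 4, edgeR with group as the only term called ITGA10 at -1.11 and ITGA11 at -0.83. It also called both with replicates 1 and 2 alone. ITGB4, the partner of ITGA6 in hemidesmosomes, had a log2 fold change of -0.80 ± 0.49 (edgeR adjusted p = 0.369). ITGA7, ITGAE and ITGAX had log2 fold changes of -0.48, -0.28 and -0.26, and ITGA2B, ITGA8 and ITGB6 averaged under 1 CPM in both groups. The median of the 12 was -0.15. ITGAD, ITGAL, ITGAM and ITGB7 were not analysed here.

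Of 16 tested activators and inhibitors, genes that turn integrins on or off, edgeR called 2, beside 6.62% of all genes. Of these, 1 rose and 1 fell, and the median log2 fold change of the list was -0.08. FERMT2, which encodes kindlin-2, an activator that binds beta subunit tails, rose from 135.7 ± 11.1 to 185.7 ± 4.38 CPM (log2 fold change 0.45 ± 0.09, edgeR adjusted p = 0.0167). Leaving out any of miR-101 replicates 1 to 3, or control replicate 2, ended that call, at an adjusted p of up to 0.0674. KANK2, which binds talin at the rim of adhesions, fell from 31.6 ± 5.77 to 17.1 ± 0.62 CPM (log2 fold change -0.89 ± 0.14, edgeR adjusted p = 0.00452). TLN1, which encodes talin itself, had a log2 fold change of -0.11 (edgeR adjusted p = 0.595).

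Adhesion complex kinases and adaptors gave 6 calls among 43 tested genes, all lower with miR-101, beside 3.32% of all genes. The median log2 fold change was -0.12, and 30 of the 43 were negative, beside 50.7% of all genes. In replicates 1 and 2, and again in replicates 3 and 4, 38 of the 43 kept their sign from all libraries. The list was chosen with earlier results of these data known, so nothing is read from this count. By limma-voom 4 were called, without NEDD9 and ARHGEF6, and with replicates 1 and 2 summed edgeR called PARVA alone. PARVA, which encodes the actin-linking adaptor alpha-parvin, was at 18.5, 18.6, 20.7 and 19.7 CPM in miR-101 and at 37.8, 37.2, 33.8 and 40.1 CPM in control. It had tight groups with a wide gap between them, and its log2 fold change was -0.94 ± 0.10 (edgeR adjusted p = 0.000917). PTK2, which encodes focal adhesion kinase, fell from 211.2 ± 19.9 to 145.2 ± 6.77 CPM (log2 fold change -0.54 ± 0.10, edgeR adjusted p = 0.0104). ILK, the integrin-linked kinase that binds parvin, had a log2 fold change of -0.03 (edgeR adjusted p = 0.882). LPXN, a paxillin relative, was at -1.10 ± 0.22 (edgeR adjusted p = 0.0153), and its call depended on miR-101 replicates 1 and 2, each of which ended it when left out. The kinase SRC at -0.67 (edgeR adjusted p = 0.0373) lost its call in 6 of the 8 fits without 1 library, and was called only without control replicate 3 or 4. The scaffold NEDD9 at -0.74 (adjusted p = 0.0382) and the exchange factor ARHGEF6 at -1.08 (adjusted p = 0.0455) each lost theirs in 7 of 8 edgeR fits, all but that without control replicate 4.

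Among 37 ligands, 1 rose and none fell in edgeR, beside 3.30% of all genes higher and 3.32% lower. The median log2 fold change was 0.16, and 13 genes had an unadjusted p under 0.05. The share of all genes at that unadjusted p was not computed, for this list or the others. DESeq2 called 5 higher and 2 lower, and the replicate block 9 higher and 4 lower. Over all genes these fits also called more, 1714 and 1676 against 1053. EDIL3, a secreted protein that binds ITGAV-containing integrins, was at 283.8, 263.4, 216.3 and 265.4 CPM in miR-101 and at 97.5, 91.9, 110.4 and 77.9 CPM in control. No library came near the other group, and its log2 fold change was 1.45 ± 0.13 (edgeR adjusted p = 0.000542). FN1, which encodes fibronectin, averaged 258.3 ± 53.7 CPM with miR-101 and 310.6 ± 81.8 in control, a log2 fold change of -0.27 (edgeR adjusted p = 0.499). SPP1, which encodes osteopontin, a ligand of ITGA4 and ITGA9 integrins among others, was outside the naming rule and picked after its values were seen. Its level was 122.2 ± 59.9 CPM in miR-101 and 28.7 ± 22.3 in control, and the groups overlapped (log2 fold change 2.09 ± 0.66, edgeR adjusted p = 0.0867). The replicate block called SPP1 at 2.35, and edgeR without miR-101 replicate 4 did so at 2.40. TNC, which encodes tenascin-C, another of these ligands and also outside the naming rule, showed no such difference. It was at 35.5 ± 9.45 CPM in miR-101 and 33.2 ± 9.04 in control (log2 fold change 0.09 ± 0.23, edgeR adjusted p = 0.856).

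Of 18 genes for integrin endocytosis and recycling, 3 fell and none rose, beside 3.32% of all genes called lower. A negative log2 fold change was seen in 17 of the 18 (median -0.23), beside 50.7% of all genes. The sign from all 8 libraries was kept by 15 of 17 genes tested in replicates 1 and 2. In replicates 3 and 4 it was kept by 14 of 18. Like the other lists, this one was chosen with earlier results of these data known, so nothing is read from the count of signs. RAB5A, the small GTPase of early endosomes, fell from 72.9 ± 11.3 to 38.9 ± 5.83 CPM (log2 fold change -0.91 ± 0.14, edgeR adjusted p = 0.00452). RAB11FIP1, a recycling adaptor, had -0.79 (edgeR adjusted p = 0.0193), and leaving out miR-101 replicate 1, miR-101 replicate 3 or control replicate 2 ended its call. RAB4A, a GTPase of fast recycling, had -0.63 (edgeR adjusted p = 0.0373), and of the 8 fits without 1 library only that without control replicate 4 kept its call. Summing replicates 1 and 2 left 0 calls in this list by edgeR, with 3 genes at an unadjusted p under 0.05. Of 14 membrane partners such as tetraspanins, edgeR called 0, beside 6.62% of all genes, and 2 had an unadjusted p under 0.05. DESeq2 called 1 of them, lower, and limma-voom and the replicate block 0, and the edgeR median was -0.22.

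In all, 13 of the 140 pathway genes outside the list of 10 were called, beside 6.62% of all genes. ITGB2, KANK2, PARVA, PTK2, EDIL3 and RAB5A kept their calls in all 8 fits without 1 library. Summing replicates 1 and 2 left 3 of the 13 calls, those of ITGB2, PARVA and EDIL3, with KANK2, PTK2 and RAB5A at an edgeR adjusted p of 0.0612, 0.132 and 0.0558. The replicate block raised the number of calls from 13 to 29. Leaving out miR-101 replicate 1 left 6, and leaving out miR-101 replicate 2 or 3 or control replicate 2 left 7 each.

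**Figure D5:**
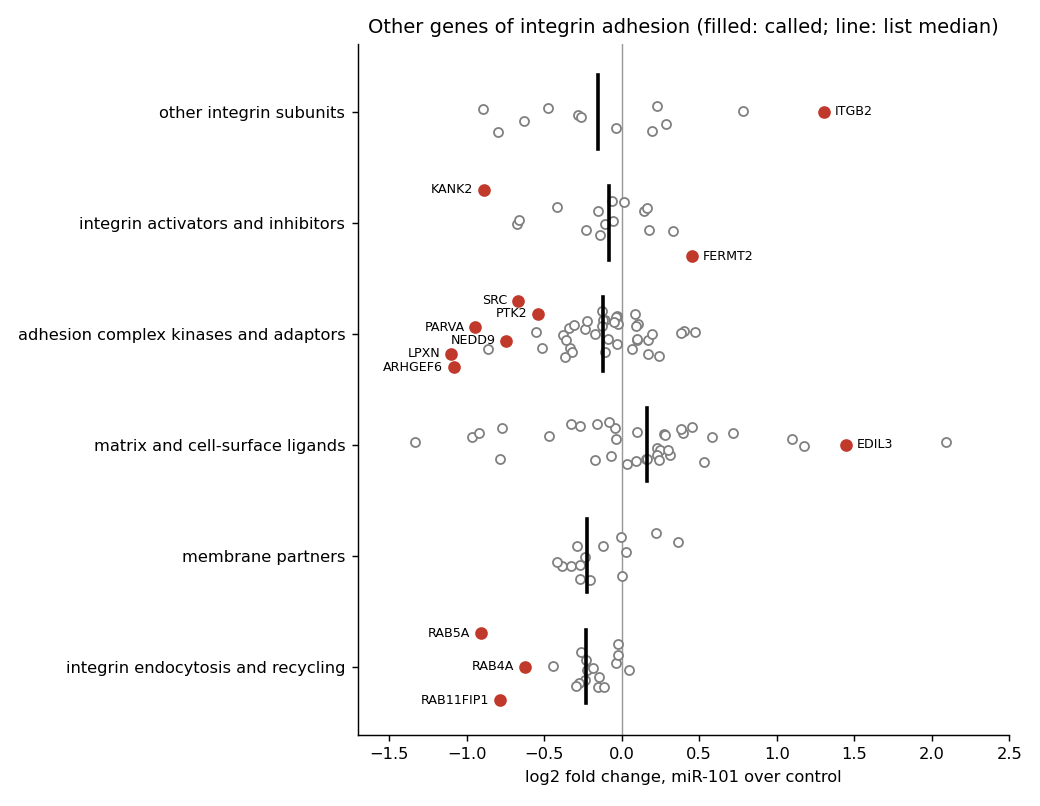
Log2 fold change of miR-101 over control (x axis) for each tested gene of the 6 integrin pathway lists, 1 row per list. Filled points are called by edgeR at an adjusted p under 0.05 and are named, open points are not, and the short line is the list's median. Called genes lie to the left in the kinase and adaptor row and the endocytosis row, and EDIL3 lies to the right among ligands.

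The genes most like ITGA9 and ITGA5 across the 8 libraries were looked up among 11501 genes averaging at least 4 CPM. Likeness was the root mean square difference of log2 CPM after each gene's own mean was removed, so it includes the group difference that chose the members and is a description. Nearest to ITGA9 were SLC2A3, a glucose transporter, at 0.317, CEMIP, a hyaluronan-binding protein, at 0.334 and SLPI, a secreted protease inhibitor, at 0.429. The median over all genes was 1.41. SLC2A3 and CEMIP rose (log2 fold changes of 1.99 and 2.05), though CEMIP's call was lost without miR-101 replicate 1, 2 or 3, and SLPI was at 1.62 without a call. Nearest to ITGA5 were ABCB9, a lysosomal peptide transporter, at 0.0643, EEF1A2, a translation elongation factor, at 0.0768 and PCDH1, a protocadherin, at 0.0921, where the median over all genes was 0.540. All 3 fell, with log2 fold changes of -0.97, -0.99 and -1.04. Summing replicates 1 and 2 ended the calls of CEMIP, ABCB9, EEF1A2 and PCDH1 (edgeR adjusted p = 0.0929, 0.0718, 0.0844 and 0.105) and not that of SLC2A3.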

How the data were processed

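Total RNA of 8 cultures was sequenced after ribosomal RNA removal, per the labels' protocols. The authors deposited raw counts, whole numbers for each gene symbol, and every column matched 1 labelled sample. The build hg38 and the tools TopHat2 2.0.14, StringTie 1.2.4 and bcl2fastq 2.18.0.12 are named in the submitters' processing notes. For the counting step, its annotation and its use of strand, nothing is given in the sources used here. ITGB1, ITGB3 and ITGA9 share sequence or exons with other genes, so their counts depend on that step.

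All genes were fitted with edgeR 4.0.16 (R 4.3.3, limma 3.58.1): filterByExpr, TMM, glmQLFit and glmQLFTest, group as the only term, Benjamini-Hochberg adjustment over 15905 genes, and a call at an adjusted p under 0.05. The pipeline was tested on simulated counts. Alternatives were DESeq2 1.42.0, limma-voom, other scaling, no filter, each library left out, replicates 1 and 2 or 3 and 4 alone, replicates 1 and 2 summed, and the replicate block. Same-numbered libraries of the 2 groups deviated together (correlations over genes of 0.359, 0.486, 0.199 and 0.205, each above 0.1), so the replicate block is given as an alternative. Some libraries of different number correlated as much or more (0.423 for miR-101 1 with control 2, 0.416 for 2 with 1 and 0.423 for 4 with 3). Nothing beyond the labels' mention of separate transfections says how far replicates were independent.

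Gene coordinates, exon lengths and 3′ UTRs came from GENCODE 29, where 14077 symbols matched. The members and the gene lists were chosen with earlier results of these data known. Genes named were all 10 members, the other integrin subunits, up to 6 called genes per list by smallest p, TLN1, FERMT2, ILK, PTK2, FN1 and EZH2, and the 3 genes most like ITGA9 and ITGA5. One seed match and one marker gene are not reported here.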

Additional observations from a re-analysis of the deposited data

Results flagged for a closer look

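In 5 of 44 sets of 4 libraries (1 gene in 1 group), 1 library stood apart from the other three by more than Dixon's 95% limit on the gap as a share of the range. Chance marks about 1 set in 20. In 4 of the 5 the library was control replicate 4, lowest each time: ITGA6 (gap 0.914), ITGAV (0.853), ITGB5 (0.864) and ITGAE (0.900). The ITGAV values were 464.3, 434.4, 422.4 and 179.6 CPM, so the low library widened the gap between the groups for ITGAV and narrowed it for ITGA6 and ITGB5. The other was ITGA9 in miR-101, where replicate 4 at 11.1 CPM lay below 26.5 to 29.5 CPM (gap 0.838).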

How the results depend on the processing

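None of the 160 values of the 10 subunits under the alternatives changed sign, 12 lost a call and 8 gained one. The numbers of calls among the members, all genes and the 140 pathway genes were 5, 1053 and 13. DESeq2 gave 1714 over all genes and 25 in the pathway lists, and the replicate block 1676 and 29; it changed no member call other than that of ITGB3. Replicates 1 and 2 alone gave 10 members (5 higher, 5 lower), 5126 genes and 71 pathway genes. Replicates 3 and 4 alone gave 0 members (0 higher, 0 lower), 6 genes and 0 pathway genes in edgeR. Replicates 1 and 2 summed gave 1 member (1 higher, 0 lower), 173 genes and 3 pathway genes. Leaving out 1 library gave 4 to 6 members (1 to 2 higher, 3 to 4 lower), 488 to 1419 genes, 6 to 19 pathway genes and 5 to 8 separated neighbours in the level order. By longest transcript the alpha sums were 314.6 (miR-101) and 419.4 (control) and the beta sums 151.9 and 151.6 CPM per kilobase. With matches of 6 bases or more, 5 members had a site. ITGA9, at 38 to 179 counts per control library, is the member most limited by depth.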
